A study of Rattus norvegicus with 4 samples.

Results

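The cyclin-dependent kinase inhibitors are 8 genes: Cdkn1a, Cdkn1b and Cdkn1c of the CIP/KIP family, Cdkn2a, Cdkn2b, Cdkn2c and Cdkn2d of the INK4 family, and the kinase-associated phosphatase gene Cdkn3. They were taken by symbol from a table of 17778 gene rows. Of the 8 genes 7 had a row, each a single one, and Cdkn2d was not analysed here. The table describes RSC96 cells of generation 4. RSC96 is an established rat line of Schwann cells, which are the glia of peripheral nerve. Cells were kept overnight without serum before treatment. One group of 2 libraries comes from cells then given recombinant rat IL-22, a STAT3-activating cytokine, at 100 ng/ml for 48 h. The other 2 libraries are solvent controls, which had 0.1% bovine serum albumin alone, and how long they had it is not stated. Poly(A) RNA was sequenced, and the series is titled for an effect on proliferation, so the comparison asks how inhibitors of the cell cycle stood after IL-22.

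A cell enters DNA replication when cyclin D with Cdk4 or Cdk6, and then cyclin E with Cdk2, phosphorylate the retinoblastoma protein and release E2F transcription factors. INK4 proteins bind Cdk4 and Cdk6 and keep D cyclins away, while CIP/KIP proteins bind whole cyclin-kinase complexes, above all those of Cdk2, and can also help to assemble cyclin D complexes. Many of these inhibitors are controlled at the level of the protein as well as the transcript, p27 in particular, and only transcripts were measured here.

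Levels are FPKM, fragments scaled by transcript length and library size, so levels of different genes can be set side by side. A difference is the IL-22 mean less the control mean of log2(FPKM + 1), from limma fitted over the 9485 rows that averaged 1 FPKM or more, with Benjamini-Hochberg adjusted p-values. In that fit 58.4% of all rows passed, 27.6% higher and 30.8% lower, and the groups did not overlap in 80.1%. Nothing in the labels says that the libraries came from separate cultures, so the p-values reflect no more than the scatter among 4 libraries, which may be technical. An exact permutation test of 2 libraries against 2 cannot go below p = 0.333. Depth, from the spacing of low values and relative to the first control library, was 1.28 in the second control and from 1.08 to 1.09 with IL-22, and absolute depth is unknown. The 10 Schwann cell markers summed to 21.8 and 23.7 FPKM in controls and to 48.1 and 50.8 FPKM with IL-22, most of it from Pmp22 (18.2 and 20.2, then 41.0 and 42.3 FPKM). Egr2 went from 0.440 and 0.480 to 4.63 and 5.60 FPKM and Erbb3 from 0.819 and 0.685 to 1.51 and 1.62 FPKM, and the part of these markers in the results below was not tested. Of the 10 markers 4 reached 1 FPKM in a library, Mbp was listed at 0 in all, and the lineage genes Sox10, S100b and Ngfr were at or below 0.119 FPKM in all 4 libraries. Il22ra1, the gene of the receptor chain that binds IL-22, was listed at 0 in each library. Markers of macrophages and leukocytes summed to between 3.80 and 6.25 FPKM and Ptprc, which defines leukocytes, to at most 0.0252 FPKM. The summed fibroblast markers, led by Thy1 and Col1a2, ranged from 397 to 406 FPKM in controls and from 401 to 407 FPKM with IL-22. Of the same markers, Dcn and Lum were listed at 0 in all 4 libraries and Col3a1 was at 0.146 FPKM or less. Endothelial markers summed to 1.84 and 1.61 FPKM in controls and to 0.623 and 0.808 FPKM with IL-22. In bulk RNA, fewer cells making a transcript and less transcript per cell cannot be told apart.

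After IL-22 the 3 CIP/KIP transcripts were higher and the 1 measurable INK4 transcript was lower. Cdkn1c was higher 3.17-fold, Cdkn1b 1.29-fold and Cdkn1a 1.16-fold, while Cdkn2c was at 0.449 of its control level. Cdkn3 did not pass the test. So 3 of the 5 tested inhibitors were higher and 1 lower, beside 27.6% and 30.8% of all tested rows, or 58.4% in either direction. Of the 7 genes with a row, 2 were listed at 0 everywhere and 5 entered the test.

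**Figure D1:**
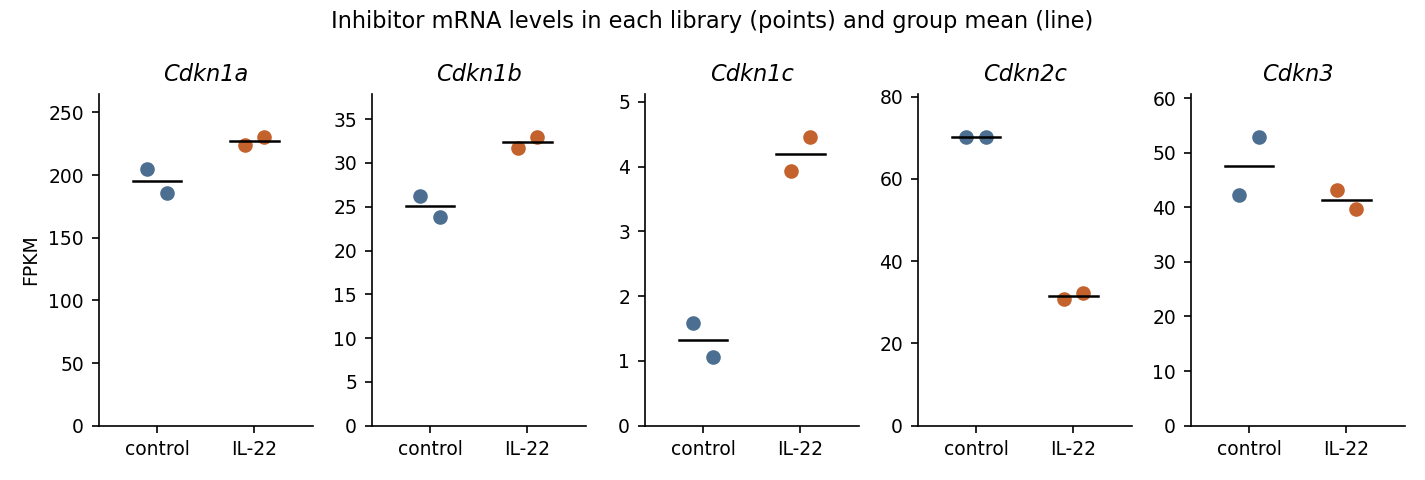
FPKM of the 5 inhibitors above 0, on axes that start at 0, with 1 point per library (2 control, 2 IL-22) and a line at each group mean. The IL-22 points lie above both control points for Cdkn1a, Cdkn1b and Cdkn1c, below them for Cdkn2c, and the groups overlap for Cdkn3.

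Cdkn1a encodes p21, an inhibitor induced after DNA damage, and was the most abundant of the 7 with a row. It measured 205 and 186 FPKM in the control libraries and 224 and 230 FPKM in the IL-22 libraries. Both IL-22 libraries lay above both controls, by between 1.09-fold and 1.24-fold depending on the pair taken. The means of 196 ± 13.5 and 227 ± 4.34 FPKM (SD, n = 2 each) differed by 0.22 ± 0.07 (SE; 95% interval from 0.06 to 0.37, limma adjusted p = 0.0213). That difference was larger than those of only 36.2% of tested genes, while the mean level was above that of 95.5% of them. The call was lost without the filter on low values (adjusted p = 0.0553), without the trend in limma (adjusted p = 0.0718) and without control library 2 (adjusted p = 0.0789), IL-22 library 1 (adjusted p = 0.0738) or IL-22 library 2 (adjusted p = 0.134). Over all 14 alternatives its adjusted p ran from 0.00656 to 0.134.

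Cdkn1b encodes p27, which holds cells in quiescence and is removed by ubiquitination when they re-enter the cycle. It measured 26.3 and 23.8 FPKM in controls and 31.7 and 33.0 FPKM with IL-22. The groups did not overlap, and the lowest IL-22 library stood 1.21-fold above the highest control. The means were 25.03 ± 1.74 and 32.3 ± 0.894 FPKM, a difference of 0.36 ± 0.08 (SE; 95% interval from 0.18 to 0.54, limma adjusted p = 0.00447). Cdkn1b kept its call under each of 14 alternatives.

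Cdkn1c encodes p57, an imprinted inhibitor best known from development and differentiation. It was the lowest of the 5 measured inhibitors, at 1.58 and 1.06 FPKM in controls and 3.93 and 4.46 FPKM with IL-22. Each IL-22 library was at least 2.49 times each control, and the means rose from 1.32 ± 0.366 to 4.20 ± 0.372 FPKM. The difference was 1.17 ± 0.16 (SE; 95% interval from 0.81 to 1.53, limma adjusted p = 0.000265), larger than that of 95.4% of tested genes. With the pseudocount of 1, its interval does not reach those of Cdkn1a and Cdkn1b. The log2 size depends on the pseudocount, since the gene is low, at 1.62 with 0.1 and 0.54 with 5. Its level was above that of only 8.86% of tested genes. With the pseudocount of 5, Cdkn1c was at 0.54 ± 0.07 (SE) and Cdkn1b at 0.32 ± 0.07 (SE), and their 95% intervals overlap.

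The summed FPKM of Cdkn1a, Cdkn1b and Cdkn1c was 233 and 211 in controls and 260.0 and 268 with IL-22. Cdkn1a held 88.0% and 88.2% of that sum in controls and 86.3% and 86.0% with IL-22, so the total followed p21. The share of Cdkn1b was 11.3% in both controls and 12.2% and 12.3% with IL-22, and that of Cdkn1c was 0.679% and 0.505% in controls and 1.51% and 1.66% with IL-22. The transcripts rose by unequal amounts, and the family remained at least 86.0% Cdkn1a in each library.

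Cdkn2c encodes p18, an INK4 inhibitor of Cdk4 and Cdk6 that is known to rise in dividing cells as a target of E2F. It measured 70.3 and 70.2 FPKM in controls and 30.8 and 32.3 FPKM with IL-22. The control libraries were nearly identical, and both IL-22 libraries were at 0.460 or less of either. Cdkn2c fell from 70.2 ± 0.0337 to 31.5 ± 1.07 FPKM, a difference of -1.13 ± 0.07 (SE; 95% interval from -1.29 to -0.97, limma adjusted p = 2.53e-06). A change of at least 1 log2 that passed the test was found in 7.52% of all tested genes, in either direction, and among the inhibitors in Cdkn1c and Cdkn2c. The fall of Cdkn2c kept its call under each of 14 alternatives, with differences from -1.16 to -1.04.

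Cdkn2a encodes the inhibitor p16 and, in another reading frame, ARF, which binds Mdm2, and Cdkn2b encodes p15, which TGF-beta is known to induce. The table gives 1 row for both products of Cdkn2a. Cdkn2a and Cdkn2b were each listed at 0 in all 4 libraries, so no fold can be given, and FPKM do not tell a silent gene from a locus that the line lacks or a failed estimate. Cdkn2c supplied the whole INK4 sum, which is of Cdkn2a, Cdkn2b and Cdkn2c and leaves out Cdkn2d. The genes around this pair, read only by their order in the RefSeq table of assembly GRCr8, were named after their values were seen. Mtap, the methylthioadenosine phosphorylase gene next to Cdkn2a, was expressed and fell from 21.0 ± 1.94 to 11.6 ± 1.92 FPKM (-0.81, limma adjusted p = 0.000395). Klhl9, the next gene with a row on that side, was at 15.4 FPKM in controls and 14.7 FPKM with IL-22, which did not pass (limma adjusted p = 0.589). On the side of Cdkn2b, Dmrta1 and Zfp352 were listed at 0 in all 4 libraries. Past them, Elavl2 measured 1.06 and 1.08 FPKM in controls and 1.18 and 0.613 FPKM with IL-22. Ifna2, past Klhl9 on the other side, was listed at 0 in all 4 libraries.

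Cdkn3 encodes a phosphatase that removes the activating phosphate from Cdk2 and is made mostly in dividing cells. It measured 42.3 and 52.9 FPKM in controls and 43.1 and 39.7 FPKM with IL-22. Control library 2 was the high one, and IL-22 library 1 lay between the controls. The means of 47.6 ± 7.53 and 41.4 ± 2.46 FPKM differed by -0.19 ± 0.10 (SE; 95% interval from -0.43 to 0.05, limma adjusted p = 0.152). Without control library 1 the difference was -0.35 and passed (limma adjusted p = 0.0293), so this value rests on which control is taken.

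**Figure D2:**
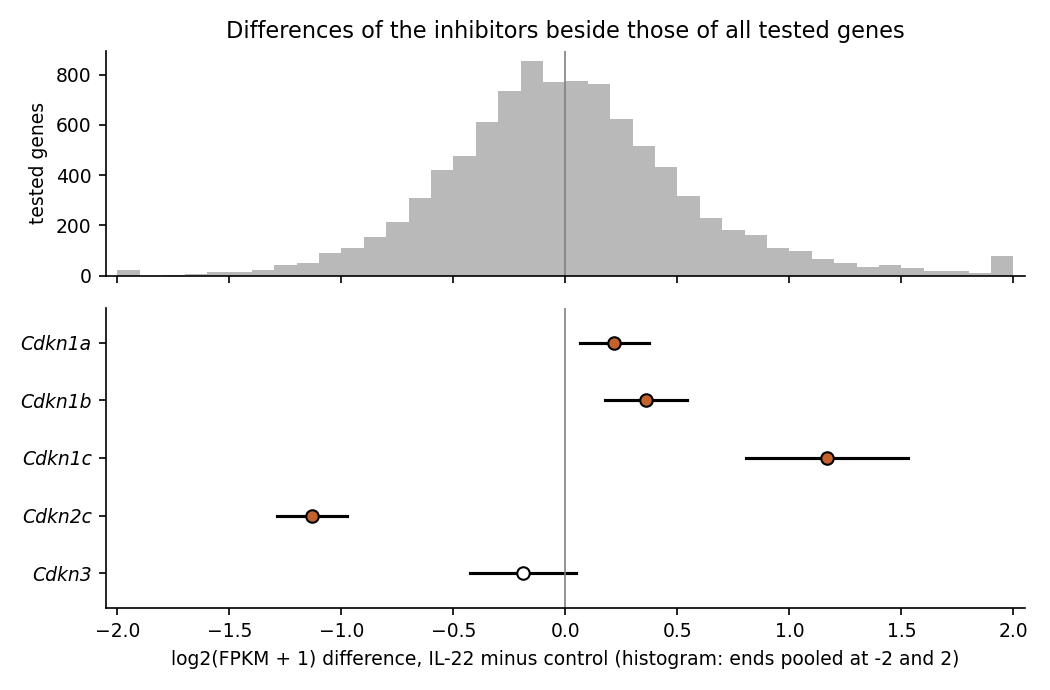
Top, histogram of the log2(FPKM + 1) difference (IL-22 minus control) of all 9485 tested genes, with values beyond -2 and 2 pooled in the end bars. Below, the 5 inhibitors on the same axis with 95% intervals from limma, filled where the adjusted p was under 0.05: Cdkn1c at 1.17 and Cdkn2c at -1.13 lie in opposite tails, and Cdkn1a at 0.22 lies within the bulk.

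By level, the controls ran Cdkn1a, Cdkn2c, Cdkn3, Cdkn1b and Cdkn1c from high to low, and no neighbours in that order overlapped. With IL-22 the order was Cdkn1a, Cdkn3, Cdkn1b, Cdkn2c and Cdkn1c. There Cdkn1b (31.7 and 33.0 FPKM) and Cdkn2c (30.8 and 32.3 FPKM) overlapped and could not be ordered. The ratio of Cdkn1a to Cdkn2c was 2.92 and 2.65 in controls and 7.29 and 7.14 with IL-22.

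The promoters of Cdkn1b, which rose, of Cdkn2c, which fell, and of Cdkn3, which did not pass, are shown for the motifs they hold. They are RefSeq windows of 250 bases before the start, in assembly GRCr8, whereas the expression table rests on rn5. Of the 8 inhibitors 7 have a window, all but Cdkn1c. Capitals mark matches to any motif searched. The Cdkn1b window is chr4:169491254-169491503 (plus strand), that of Cdkn2c chr5:129644892-129645141 (minus strand) and the first of the windows of Cdkn3 chr15:22502136-22502385 (plus strand).
Cdkn1b: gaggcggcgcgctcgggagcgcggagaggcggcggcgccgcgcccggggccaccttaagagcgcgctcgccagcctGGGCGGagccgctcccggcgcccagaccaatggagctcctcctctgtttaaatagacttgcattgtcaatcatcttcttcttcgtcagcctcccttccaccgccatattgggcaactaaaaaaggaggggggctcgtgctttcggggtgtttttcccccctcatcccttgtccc
Cdkn2c: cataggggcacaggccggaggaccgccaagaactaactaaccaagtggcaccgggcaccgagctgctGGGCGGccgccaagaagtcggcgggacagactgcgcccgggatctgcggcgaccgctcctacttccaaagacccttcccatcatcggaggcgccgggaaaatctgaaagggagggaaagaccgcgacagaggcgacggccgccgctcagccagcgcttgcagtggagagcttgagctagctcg
Cdkn3: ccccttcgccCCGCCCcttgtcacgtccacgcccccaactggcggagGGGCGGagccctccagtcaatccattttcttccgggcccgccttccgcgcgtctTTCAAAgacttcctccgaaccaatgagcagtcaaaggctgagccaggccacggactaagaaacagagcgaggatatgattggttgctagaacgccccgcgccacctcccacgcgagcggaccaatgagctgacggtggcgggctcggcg

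Matches were sought on both strands in these windows extended by 50 bases past the start. The Sp1 box GGGCGG is in the windows of all of the 7 but Cdkn1a, and in 33.1% of 33469 RefSeq windows. The capitals in Cdkn1b and Cdkn2c are of this box. The E2F motifs TTTCCCGC, TTTGGCGC, TTTCGCGC and TTTGCCGC are in none of the 7 and in 2.14% of all windows. The cell cycle element TTTGAA or TTCGAA is in those of Cdkn2b and Cdkn3, in Cdkn3 on the reverse strand at -149 to -144, and in 19.7% of all. The STAT motif TTCNNNGAA is in that of Cdkn2d and in 8.87% of all. These letters describe the windows and show no binding.

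Most kinases and cyclins that the inhibitors bind fell. By limma, 0 of 11 tested members of that list were higher (0 at an unadjusted p under 0.05) and 10 lower, with a median difference of -0.71, where the median of all tested genes was -0.02. Among all tested rows 27.6% were higher and 30.8% lower. Within the list, cyclin A2 (Ccna2, -1.31), cyclin E1 (Ccne1, -1.01), Cdk2 (-0.95) and cyclin E2 (Ccne2, -0.94) had the largest differences. Ccne2 averaged 1.99 FPKM in controls and 0.575 FPKM with IL-22, so it passed the filter through the controls alone, and its difference ran from -1.71 with a pseudocount of 0.1 to -0.33 with 5. Cdk2, the main kinase under p21 and p27, measured 42.1 and 39.7 FPKM in controls and 20.3 and 21.1 FPKM with IL-22. The remaining tested member, the D cyclin Ccnd3, measured 173 and 170.1 FPKM in controls and 178 and 192 FPKM with IL-22 and did not pass (limma adjusted p = 0.172). Of the 2 members below the filter, cyclin A1 (Ccna1) was at 0.474 and 0.431 FPKM in controls and 1.02 and 1.39 FPKM with IL-22, and Ccnd2 was at 0.0798 FPKM or less. Without the filter this list had 1 higher. These 3 genes were named after their values were seen.

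Set beside the inhibitors, the summed FPKM of Cdk1, Cdk2, Cdk4 and Cdk6 was 668 and 652 in controls and 420.1 and 431 with IL-22. The ratio of summed CIP/KIP to summed kinase transcripts was therefore 0.349 and 0.324 in controls and 0.619 and 0.621 with IL-22. Of the 1.84-fold gap between the mean ratios, the CIP/KIP sum contributed 1.19-fold and the kinase sum, at 0.645 of control, the rest. Against the D cyclins the CIP/KIP ratio was 0.296 and 0.269 in controls and 0.440 and 0.446 with IL-22. Cdkn2c went the other way, with a ratio to Cdk4 plus Cdk6 of 0.179 in both controls and of 0.119 and 0.122 with IL-22, although those kinases fell too. These ratios of transcripts are descriptions with no test and say nothing of how much protein was bound.

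**Figure D3:**
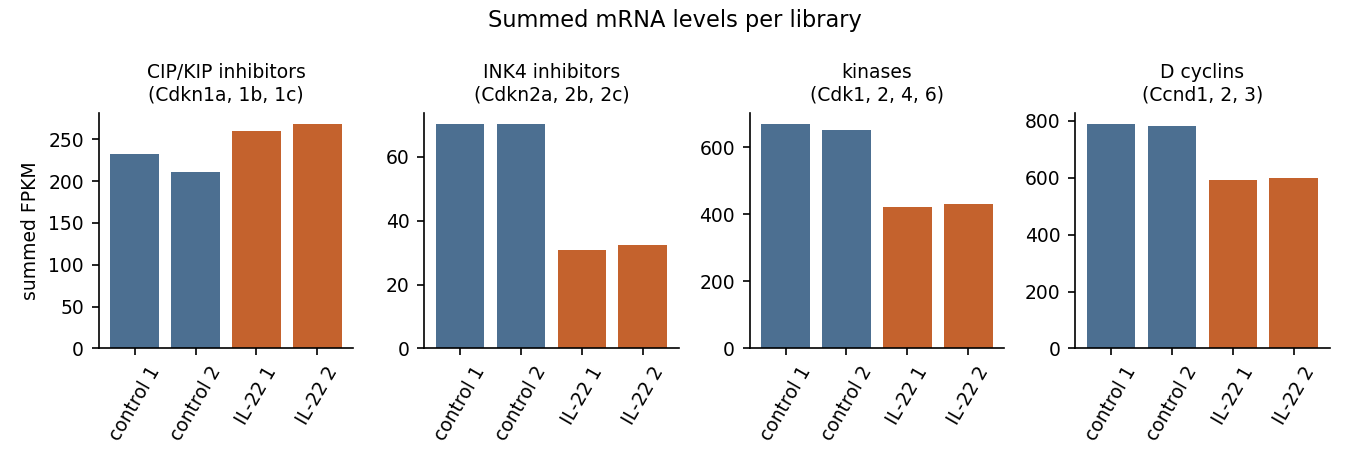
Summed FPKM per library (1 bar each, axes from 0) of the CIP/KIP inhibitors, the INK4 inhibitors, the kinases Cdk1, Cdk2, Cdk4 and Cdk6, and the D cyclins. The INK4 sum is of Cdkn2a, Cdkn2b and Cdkn2c, without Cdkn2d. The CIP/KIP bars are higher with IL-22 (260.0 and 268 against 233 and 211) and the bars of the other 3 sums are lower.

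Genes that switch these kinases by phosphorylation or dock on them gave 0 higher (1 at an unadjusted p under 0.05) and 7 lower of 9 tested with limma, with a median of -0.34. This list had 1 higher without control library 2, with a minimum mean of 5 FPKM, with quantile normalization, with size factors and with the replicate block. Wee1, whose kinase holds Cdk1 and Cdk2 inactive, fell from 18.8 to 7.93 FPKM (-1.15), and so did the opposing phosphatase gene Cdc25a (-1.09) and the docking subunit Cks2 (-0.55). The lower value of Cdc25c (-0.38) lost its call without the filter, without the trend, with quantile normalization, and without control library 1 (limma adjusted p = 0.211), control library 2 (0.157) or IL-22 library 2 (0.289). Retinoblastoma proteins and E2F factors gave 1 higher and 6 lower of 10 tested (median -0.72). Both lists stand beside 27.6% of all tested rows higher and 30.8% lower. E2f3 (-1.09), the E2F partner Tfdp1 (-1.07), E2f1 (-1.07) and the repressor E2f7 (-0.95) fell. E2f1 went from 77.8 and 73.0 FPKM to 34.6 and 36.3 FPKM. Rb1, named after its values were seen, was the higher one, from 1.71 to 3.19 FPKM (0.63, limma adjusted p = 0.00393), and this list had 2 higher without control library 1 and 0 with a minimum mean of 5 FPKM, which leaves Rb1 out.

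CIP/KIP proteins are cleared by ubiquitin ligases, p27 chiefly by the one built on Skp2. By limma, 0 of 13 tested genes of these ligases were higher (0 at an unadjusted p under 0.05) and 7 lower, with a median of -0.20. All tested rows gave 27.6% higher and 30.8% lower, or 58.4% in either direction. Skp2, the subunit that recognises p27, fell from 9.04 and 7.96 FPKM to 4.37 and 3.60 FPKM (-0.93 ± 0.13, limma adjusted p = 0.00025). Its partner Skp1 (-0.58), the conjugating enzyme gene Cdc34 (-0.53) and Ubac1 (-0.46), part of a further ligase of p27, also fell. Rnf123, the partner of Ubac1 in that ligase, was at 21.5 FPKM in controls and 21.6 FPKM with IL-22. It did not pass (limma adjusted p = 0.976) and was named after its values were seen. The docking factor Cks1b, which Skp2 needs to bind p27, went from 64.8 and 73.9 FPKM to 56.2 and 53.2 FPKM (-0.34, limma adjusted p = 0.00626) and was named after its values were seen.

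Transcription factors known to act on CIP/KIP genes gave 10 higher and 3 lower of 17 tested, with a median of 0.45. Of all tested rows 27.6% were higher and 30.8% lower. Egr1, an immediate-early factor, rose from 36.3 and 50.5 FPKM to 172.3 and 171.5 FPKM (1.98). Cebpb rose by 1.25, and Foxo4, of the FOXO factors that induce Cdkn1b, rose by 0.83. Smad2, a TGF-beta effector named after its values were seen, was among the 3 lower ones (-0.36). Smad3 (0.57) and Smad4 (0.45), likewise named after their values were seen, were among the 10 higher ones.

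Polycomb and other regulators of the INK4 locus gave 6 higher and 8 lower of 16 tested (median -0.28). The shares over all tested rows, for this list and the next, were 27.6% higher and 30.8% lower, or 58.4% in either direction. Id1, which keeps Ets factors from inducing Cdkn2a, fell (-1.60), its relative Id2 fell (-2.54), and so did the Polycomb repressor gene Bmi1, from 23.8 and 23.7 FPKM to 13.8 and 15.9 FPKM (-0.65). Kdm6b, which removes the Polycomb mark, rose from 12.1 and 11.9 FPKM to 30.4 and 31.0 FPKM (1.29). Cdkn2a and Cdkn2b were listed at 0 in both groups throughout. Partners of ARF gave 1 higher and 4 lower of 8 tested (median -0.09), with Npm1, its nucleolar anchor, lower (-0.70), the deubiquitinase gene Usp10 lower (-0.50), Hif1a higher (0.48), and Ctbp2 at -0.30, a call lost without IL-22 library 1 (limma adjusted p = 0.0697). Without that library 2 of these partners were lower, and 2 were higher without control library 1, with size factors and with the replicate block.

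**Figure D4:**
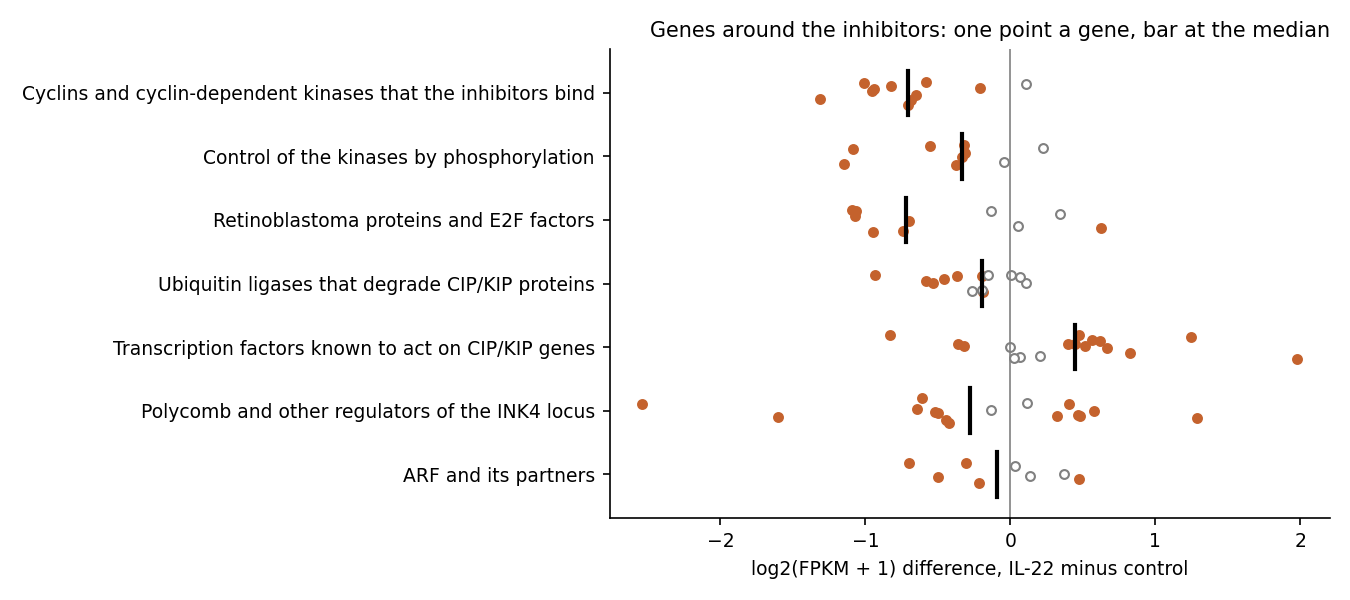
log2(FPKM + 1) difference (IL-22 minus control) of the tested genes of 7 lists around the inhibitors, with 1 point per gene, filled where the limma adjusted p was under 0.05, and a bar at each list's median. The medians of the cyclins and kinases (-0.71) and of the retinoblastoma and E2F genes (-0.72) lie lowest, and that of the transcription factors (0.45) highest.

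The genes most similar to each changed inhibitor were those with the smallest Euclidean distance between centred log2(FPKM + 1) values over the 4 libraries, among 9484 others. For Cdkn1a these were Rnh1 (distance 0.018) and Ttyh3 (0.019), and for Cdkn1b Rpl3 (0.015) and Rnf43 (0.022). For Cdkn1c they were Gch1 (0.063) and Myh14 (0.089), and for Cdkn2c Gatc (0.028) and Chtf18 (0.037). Gch1, the first enzyme of tetrahydrobiopterin synthesis, measured 70.9 and 59.6 FPKM in controls and 137 and 151 FPKM with IL-22, and Chtf18, a clamp loader subunit, 29.3 and 29.1 FPKM in controls and 12.7 and 13.5 FPKM with IL-22. With 4 libraries in 2 groups this likeness is little more than an equal difference and equal spread.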

How the data were processed

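The authors deposited unpooled FPKM of genes, a column for each library. The submitters' processing notes name TopHat2, Cuffdiff and the build rn5. Not given in the sources used here are tool versions and roles, annotation, filters, any scaling and strand, so overlapping and antisense transcripts cannot be told apart. The table of lncRNAs was not used. The inhibitors and gene lists were chosen with earlier results of these data known. Of 124 genes in 8 lists 116 had a row, and 1 list and some genes that the naming rule takes are not reported here.

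Rows that averaged 1 FPKM or more entered limma (version 3.58.1, R 4.3.3), with eBayes moderation and a trend, no covariates, two-sided tests and an adjusted p under 0.05. Values were log2(FPKM + 1), a scale that understates changes of low genes. The fit was tested on simulated data. Where rows share a symbol, the highest stands for it. Named were the inhibitors, up to 4 called genes per list by absolute difference, and the 2 genes most similar to each called inhibitor. An exact 0 can be a failed estimate. Alternatives were other pseudocounts, filters, scalings and eBayes settings, a replicate block, and leaving out each library, whose partner was then assumed to vary like the other group. Tables and figures used pandas 2.3.3, matplotlib 3.10.9 and numpy 2.4.6 under Python 3.11.15.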

Additional observations from a re-analysis of the deposited data

How the results depend on the processing

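Over the 14 alternatives the direction of each tested inhibitor held. For Cdkn1a, Cdkn1b, Cdkn1c and Cdkn2c, whose groups did not overlap, only the changes of scaling could have reversed it. With 1 library left out, the difference ranged from 0.15 to 0.29 for Cdkn1a, 0.29 to 0.43 for Cdkn1b, 1.01 to 1.33 for Cdkn1c, -1.16 to -1.10 for Cdkn2c and -0.35 to -0.030 for Cdkn3, the number of inhibitors higher from 2 to 3 and of those lower from 1 to 2. Cdkn1a lost its call at an unaltered 0.22 without the filter and without the trend, and the cause was not tested. Size factors put the control INK4 sum at 69.4 instead of 70.2 FPKM. The median shift of all genes stayed within 0.1 log2 under each scaling. Klhl9, not called, ranged from -0.21 to 0.068 with 1 library left out and turned upward without IL-22 library 2. Of 224 list counts 12 moved by over 1.5 times. A minimum mean of 5 FPKM leaves Cdkn1c out. Deviations from the group mean did not correlate between the libraries numbered 1 (correlation -0.0020). With 2 libraries per group this cannot show whether libraries of the same number were paired. With the replicate block 2755 genes were higher and 3070 lower, instead of 2619 and 2918, with the same counts of 3 inhibitors higher and 1 lower. Absolute depth is unknown, so no limit can be set for the inhibitors listed at 0.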
